A study of Mus musculus with 35 samples.

Results

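The 35 genes described here take part in homologous recombination, the Fanconi anemia pathway, mismatch repair and the signaling that goes with them. They were taken by symbol from a list, and each was found once among the 55487 rows of each of the 4 tables. By role they were 8 genes of the BRCA1/BRCA2 group and strand exchange, 6 of break sensing, resection and junction cleavage, 7 of the Fanconi anemia core with its translocase, the 2 genes of the Fanconi ID2 complex, 3 of mismatch repair, 4 checkpoint kinases and 5 other repair enzymes. The study knocked down IAMP, a micropeptide encoded by 4930523C07Rik, in cardiac fibroblasts (CFs) isolated from 8-week-old mice, passaged and grown in serum. Untreated CFs, CFs given IL-17 and CFs given TGF-β each gave 3 libraries with a control siRNA (Scrambled) and 3 with each of 2 siRNAs against IAMP (siR-1 and siR-2). In the untreated and IL-17 tables the siRNAs are named by codes that only the TGF-β labels pair with siR-1 and siR-2. In the labels, IL-17 followed the siRNA after 24 h and lasted another 24 h, and times for the untreated and TGF-β cells are not given in the sources used here. Hearts of 8-week-old C57BL/6 mice, unstressed, gave 4 libraries from IAMP heterozygotes (HET) and 4 from IAMP knockouts (KO), whose line descends from fertilized eggs injected with Cas9 and 1 guide RNA, so that the edit is not restricted to any cell type. HET mice, which carry 1 edited allele, were the reference in hearts. Whether replicates came from separate cultures or animals is not stated for the CFs, so p-values measure the spread between these libraries, which may be technical.

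Homologous recombination repairs a DNA double-strand break by copying the sister chromatid. The MRE11-RAD50-NBN complex senses the break, nucleases such as EXO1 resect its ends, and BRCA1, BARD1, PALB2 and BRCA2 prepare strand exchange. The Fanconi anemia core complex monoubiquitinates FANCD2 and FANCI at DNA crosslinks, and mismatch repair removes errors left by the replication fork. Because these processes act on DNA that is being copied or has been copied, many of these genes are transcribed mainly in dividing cells, and E2F factors are known regulators of several of them.

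Promoter windows are given for the members with the largest mean fall and for the member with the mean change nearest to 0. RefSeq windows (GRCm38.p6, 250 bases before to 50 after the start) matched 30 of the 35 members, with 34 windows in all, and none was matched for Nbn, Rad50, Exo1, Fancd2 and Xrcc2. Among members with a window, Bard1, Fanci and Brca2 had the largest mean fall over the 6 comparisons of an siRNA with Scrambled, and Lig4 had the mean change nearest to 0. Changes of opposite sign can cancel in such a mean, as for Lig4, whose untreated values are given below. The windows are given 5′ to 3′ on the gene's strand, and capitals mark the E2F words TTTCCCGC, TTTCGCGC, TTTGCCGC and TTTGGCGC, searched on both strands.
Bard1, minus strand, chr1:71102923-71103222: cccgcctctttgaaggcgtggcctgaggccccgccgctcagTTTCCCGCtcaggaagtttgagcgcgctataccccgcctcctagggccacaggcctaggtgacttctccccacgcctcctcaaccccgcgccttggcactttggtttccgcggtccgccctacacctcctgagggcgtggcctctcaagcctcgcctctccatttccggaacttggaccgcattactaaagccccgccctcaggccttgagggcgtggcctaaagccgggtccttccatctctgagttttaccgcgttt
Fanci, plus strand, chr7:79392088-79392387: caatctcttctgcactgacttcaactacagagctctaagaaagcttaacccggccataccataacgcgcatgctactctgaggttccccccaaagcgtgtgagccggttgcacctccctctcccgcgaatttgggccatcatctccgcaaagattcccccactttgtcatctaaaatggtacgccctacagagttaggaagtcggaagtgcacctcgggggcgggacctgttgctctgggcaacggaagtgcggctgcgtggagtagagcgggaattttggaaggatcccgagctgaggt
Brca2, plus strand, chr5:150522371-150522670: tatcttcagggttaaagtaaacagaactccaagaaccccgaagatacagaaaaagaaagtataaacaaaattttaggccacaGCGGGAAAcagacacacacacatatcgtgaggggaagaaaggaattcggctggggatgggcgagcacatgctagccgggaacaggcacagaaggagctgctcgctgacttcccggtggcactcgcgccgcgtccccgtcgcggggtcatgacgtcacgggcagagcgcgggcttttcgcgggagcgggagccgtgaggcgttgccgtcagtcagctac
Lig4, minus strand, the first of its 2 windows, chr8:9977631-9977930: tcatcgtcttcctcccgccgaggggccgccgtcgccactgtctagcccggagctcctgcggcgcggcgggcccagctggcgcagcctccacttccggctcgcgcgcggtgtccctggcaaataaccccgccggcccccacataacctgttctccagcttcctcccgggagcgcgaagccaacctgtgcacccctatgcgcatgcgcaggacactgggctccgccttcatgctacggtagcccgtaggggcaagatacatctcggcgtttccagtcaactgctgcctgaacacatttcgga
The Bard1 word starts 209 bases before the RefSeq start of its window, and the Brca2 word, on the opposite strand, 168 bases before its own. GENCODE, which gives the gene coordinates below, places these starts elsewhere. The Fanci and Lig4 windows hold none of these words. The whole Fanci window lies downstream of the GENCODE start of that gene, chr7:79391929. Over all windows of a gene, 7 of 30 members (23.3%) held an E2F word, which was 704 of 27025 genes (2.61%) in RefSeq as a whole. The 7 members were Bard1, Brca2, Lig1, Msh6, Chek2, Fancg and Msh3. Of the 9 members with a window that fell with siR-2 in all 3 CF tables, 2 held one (22.2%), and of the other 21 members 5 did (23.8%). The CCAAT box (CCAAT) was in 15 of 30 members (50%) and in 41.1% of all genes, and a CHR word (TTTGAA or TTCGAA) in 4 of 30 (13.3%) and in 21.7%. These matches describe letters in a window and are not binding sites.

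A CF library held 104139670 to 119232309 estimated counts and a heart 23497027 to 23857313 counts. Among genes with counts in only 1 library of a CF table, the most frequent value was 6 estimated counts, which was taken as 1 read pair. Levels are given in CPM, a gene's counts relative to the library total after TMM scaling. 4930523C07Rik stood at 22.0, 22.7 and 25.8 CPM in the untreated Scrambled libraries, at 2.51, 3.51 and 2.97 CPM with siR-1 and at 1.76, 1.83 and 1.88 CPM with siR-2. HET hearts held 17.0 ± 1.25 CPM of it and KO hearts 16.0 ± 0.976 CPM (SD, n = 4), and as the edit shifts the reading frame, this level does not check the genotype. Fibroblast markers (7 genes) summed to 7850 to 16745 CPM in CFs, where none was at 0, and cardiomyocyte markers (6 genes) summed to 39800 to 42856 CPM in HET hearts. Markers of other cells differed between the siRNA groups in untreated CFs. Cardiomyocyte markers summed to 90.2 to 98.3 CPM in Scrambled (1 of 6 at 0), 41.9 to 46.9 after siR-1 and 27.1 to 32.4 after siR-2, smooth muscle markers (3 genes) to 156 to 161, 84.1 to 89.3 and 65.7 to 70.6, and macrophage markers (6 genes) to 19.2 to 21.0, 23.5 to 23.9 and 31.6 to 32.3. Single markers went both ways. At an adjusted p of at most 0.05, 1 macrophage marker was lower and 1 higher with siR-1, and 1 lower and 2 higher with siR-2. Of the smooth muscle markers 1 was lower and 1 higher with siR-1, and 2 were lower with siR-2. The sum of the endothelial markers (5 genes) lay between 50.2 and 59.9 CPM, and that of the lymphocyte markers (3 genes) at 0.267 CPM or less. Of the endothelial markers 2 were lower with siR-1, and 3 were lower and 1 higher with siR-2, at an adjusted p of at most 0.05. Fibroblast markers summed to 8615 to 8776, 11224 to 11494 and 7909 to 8144 CPM in these groups. By that limit 2 of the 7 were lower and 3 higher with siR-1, and 4 lower and 2 higher with siR-2. Nearly all of the cardiomyocyte sum was Tnnt2, while Myh6 was at 0 in the Scrambled and siR-2 libraries and Myl2 in the siR-1 and siR-2 libraries. The part of these markers in the results below was not tested.

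In untreated CFs, siR-2 lowered 18 of the 35 genes by at least 1 on the log2 scale. Of all 19669 genes tested, 7.23% were lower by this rule (edgeR quasi-likelihood test, Benjamini-Hochberg adjusted p of at most 0.05 and a log2 fold change of at least 1 in size, which is 2-fold). By the adjusted p alone 32 members were lower, beside 25% of all genes, and 1, Parp1, was higher, beside 24.4%. Below, a gene is said to fall or rise where it passed both limits, and to be lower or higher by the adjusted p alone where it passed only that one. The members' median log2 fold change was −1.04, beside −0.02 over all genes. With siR-1, 19 members were lower by the adjusted p alone, where 20.4% of all genes were, and the median was −0.37. With the fold minimum siR-1 lowered 0 members in edgeR and in DESeq2 (2.61% of all genes), and 24 members had an unadjusted p under 0.05 (45.8% of all genes did). At a 1.5-fold minimum the siR-1 counts were 7 lower and 1 higher, beside 6.65% and 5.42% of all genes. The summed level of the 35 genes was 581 to 609 CPM in the Scrambled libraries, 478 to 503 CPM with siR-1 and 348 to 376 CPM with siR-2, 3 ranges that did not overlap. Both siRNAs were compared with the same Scrambled libraries. In bulk RNA, fewer cells in a given phase and less RNA per cell cannot be told apart.

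Genes of cell division moved with the members. The 17 mitosis genes listed for comparison all fell with siR-2, with a median log2 fold change of −1.65, and their summed level was 1770 to 1786 CPM in Scrambled, 1001 to 1088 CPM after siR-1 and 531 to 579 CPM after siR-2. Mki67, the gene of the proliferation marker Ki-67, was at 276 ± 13.7, 158 ± 12 and 66.5 ± 1.82 CPM in these groups (SD, n = 3). Of 17 S phase genes 8 fell with siR-2, with a median of −0.96. The part of cell division in the members' change was not tested. The map of fold changes gives all members at once.

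**Figure D1:**
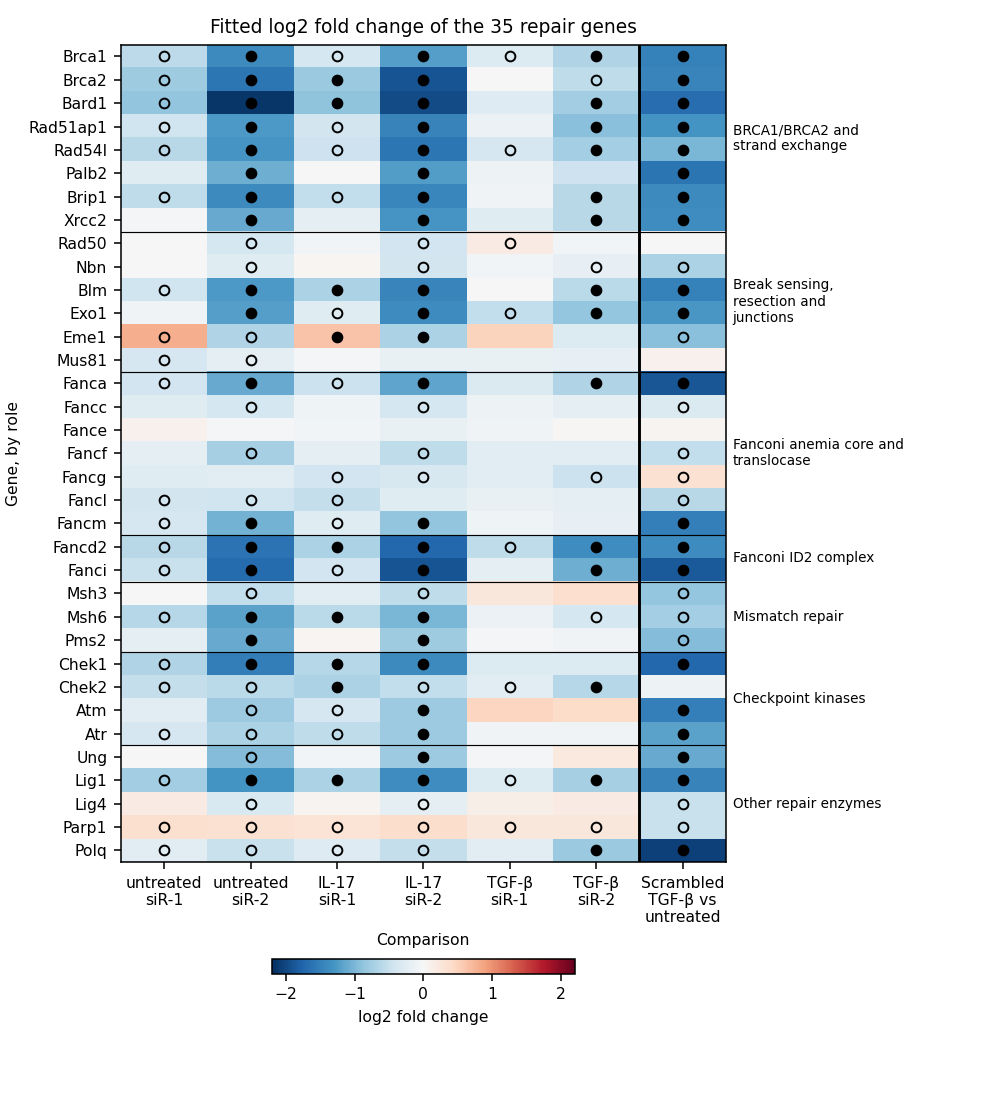
Fitted log2 fold change of the 35 genes (rows, grouped by role) with each siRNA against Scrambled in the 3 CF tables and with TGF-β against no treatment in Scrambled CFs (columns). Filled circles mark an adjusted p of at most 0.05 with the fold minimum of the comparison (2-fold in untreated cells and for TGF-β against untreated, 1.5-fold within the IL-17 and TGF-β tables), and open circles an adjusted p of at most 0.05 alone. The siR-2 columns carry 18, 22 and 14 filled circles and the siR-1 columns 0, 9 and 0.

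All 8 genes of the BRCA1/BRCA2 group and strand exchange fell with siR-2 in untreated CFs, with log2 fold changes of −1.07 to −2.14. Bard1 (chr1:71027498-71103146), which encodes the partner of BRCA1 in its ubiquitin ligase, had the largest fall of the 35 genes. It was at 9.63, 8.99 and 8.57 CPM in Scrambled, at 5.77, 4.17 and 4.93 CPM with siR-1 and at 2.60, 1.74 and 1.85 CPM with siR-2, and the 3 groups did not overlap. Its log2 fold change was −2.14 (SE 0.15, edgeR, Benjamini-Hochberg adjusted p = 3.85e-09) with siR-2 and −0.87 (SE 0.15, edgeR, Benjamini-Hochberg adjusted p = 0.000124) with siR-1. Brca2 (chr5:150522630-150570329), which acts in strand exchange, stood at 14.3, 15.4 and 12 CPM, 7.36, 8.06 and 8.87 CPM and 5.04, 4.44 and 4.29 CPM in the same groups, again without overlap. Brca1 (chr11:101488764-101551955) was at 17.2, 20.4 and 17.7 CPM in Scrambled, 11.7, 13.7 and 11.7 CPM with siR-1 and 7.91, 6.55 and 6.37 CPM with siR-2, a log2 fold change of −1.41 (SE 0.10, edgeR, Benjamini-Hochberg adjusted p = 2.75e-09) with siR-2. The helicase gene Brip1 (−1.41), the translocase gene Rad54l (−1.29), Rad51ap1 (−1.26), Xrcc2 (−1.10) and Palb2 (−1.07), which bridges BRCA1 and BRCA2, also fell with siR-2. Of the 8 genes only Palb2 and Xrcc2 missed the adjusted p with siR-1, at −0.27 and −0.05. Of the exons of Rad54l, 15.4% overlap Lrrc41 on the opposite strand, and without a stated strand setting reads there cannot be assigned.

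**Figure D2:**
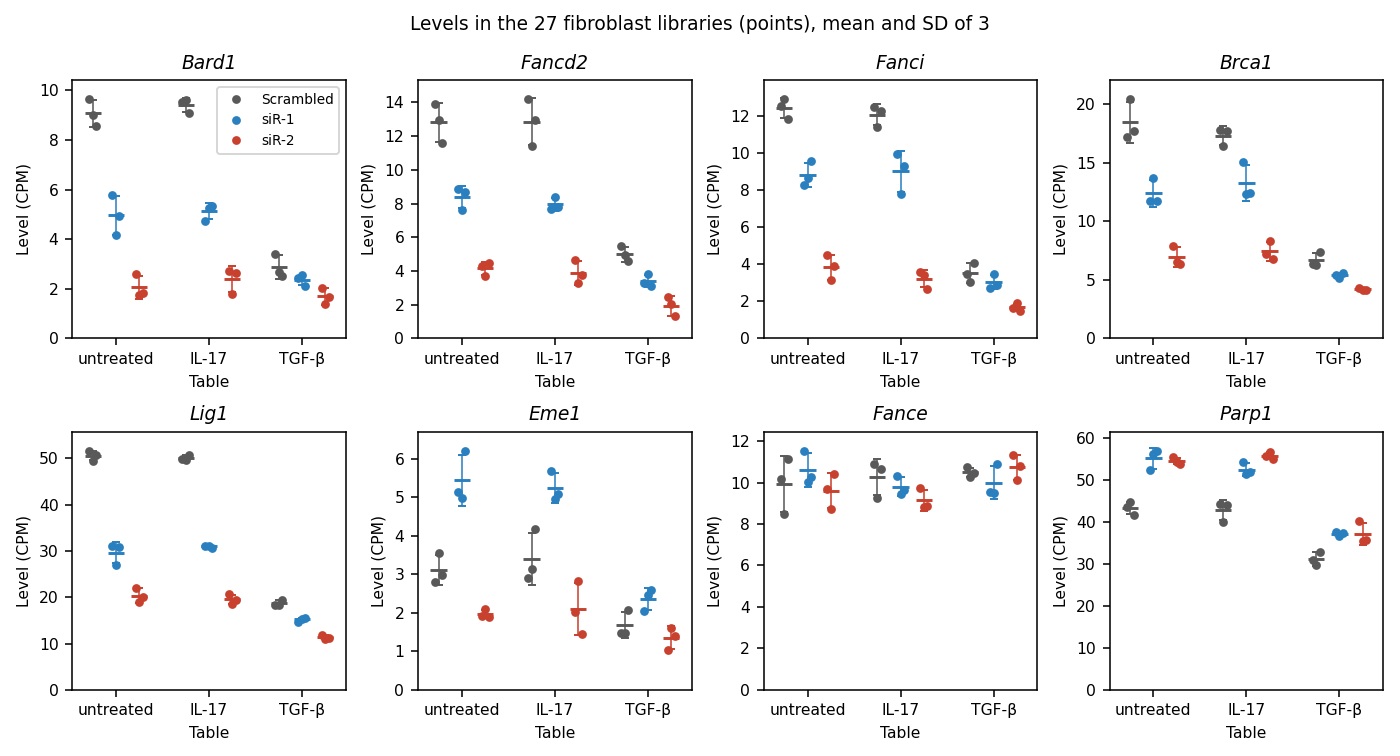
Level in CPM (vertical axis, from 0) of 8 genes in the 27 CF libraries, with 3 points, the mean (bar) and the SD (whisker) for each siRNA in each table. Bard1, Fancd2, Fanci, Brca1 and Lig1 step down from Scrambled to siR-1 to siR-2 in untreated and IL-17 cells, Eme1 is highest with siR-1 in each table, the Fance means lie between 9.14 and 10.7 CPM, and Parp1 is higher with both siRNAs in each table.

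Both genes of the ID2 complex, the substrate that the core complex ubiquitinates, fell with siR-2 in untreated cells, and so did 2 of the 7 genes of the core and translocase. Fancd2 (chr6:113531682-113597017) was at 13.9, 13.0 and 11.6 CPM in Scrambled, 8.87, 7.64 and 8.69 CPM with siR-1 and 4.29, 3.72 and 4.47 CPM with siR-2. Fanci (chr7:79391929-79450264) was at 12.5, 12.9 and 11.9 CPM, 8.25, 8.63 and 9.54 CPM and 4.47, 3.12 and 3.89 CPM. In both genes the 3 groups were apart, and the log2 fold changes with siR-2 were −1.62 (SE 0.10, edgeR, Benjamini-Hochberg adjusted p = 6.49e-10) for Fancd2 and −1.70 (SE 0.11, edgeR, Benjamini-Hochberg adjusted p = 1.61e-09) for Fanci. These were the 2 members that also fell by at least 1 with siR-2 in the IL-17 and TGF-β tables. Exons of Fanci overlap Polg on the opposite strand over 16.0% of their length. Of the core and translocase genes, Fanca (−1.11) and Fancm (−1.04), the DNA translocase, fell with siR-2 in untreated cells, while Fancf (−0.74), Fancl (−0.43), the ubiquitin ligase subunit, and Fancc (−0.38) passed the adjusted p alone. Fancm was at −0.97 without siR-2 replicate 2 or Scrambled replicate 2. Fancg did not pass it (−0.25, adjusted p = 0.0959 in edgeR after Benjamini-Hochberg adjustment).

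Fance, whose product binds FANCD2 within the core complex, passed the adjusted p in 0 of 11 comparisons among CFs, the fewest of the 35 genes. Its untreated level was 10.2, 8.47 and 11.1 CPM in Scrambled, 11.5, 10.0 and 10.3 CPM with siR-1 and 9.67, 8.73 and 10.4 CPM with siR-2, and the ranges overlapped. The group means lay between 9.14 and 10.7 CPM over all 9 CF groups, and the log2 fold change with siR-2 in untreated cells was −0.05 (SE 0.10). Per exon length Fance was at 3.11 ± 0.420 CPM per kb in Scrambled (SD, n = 3), above Fancd2 at 1.62 ± 0.147. Mus81, a subunit of a junction-cleaving nuclease, passed the adjusted p in 3 of 11 comparisons. It stood at 14.9, 13.8 and 13.8 CPM in Scrambled, 11.3, 10.5 and 11.1 CPM with siR-1 and 12.5, 12.1 and 12.3 CPM with siR-2, so the siR-1 level was the lowest. Its largest change with an siRNA was −0.37, with siR-1 in untreated cells.

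Among the genes of break sensing, resection and junctions, the 2 of the sensor complex stayed under the fold minimum with both siRNAs. Rad50 was −0.38 and Nbn −0.27 on the log2 scale with siR-2 in untreated cells, past the adjusted p alone, and −0.01 and 0.01 with siR-1, which did not pass it. The nuclease gene Exo1 (−1.20) and the helicase gene Blm (−1.26) fell with siR-2. Exo1 did so with siR-2 alone in untreated cells, at 8.02, 9.10 and 8.12 CPM in Scrambled, 8.58, 7.77 and 7.71 CPM with siR-1 and 3.67, 3.18 and 4.11 CPM with siR-2, and siR-2 differed from siR-1 by −1.13 (SE 0.11, edgeR, Benjamini-Hochberg adjusted p = 1.85e-07).

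Eme1, which encodes the partner of MUS81, moved in opposite directions with the 2 siRNAs. It was at 2.81, 3.55 and 2.98 CPM in the untreated Scrambled libraries, at 5.14, 4.99 and 6.21 CPM with siR-1 and at 1.91, 2.09 and 1.89 CPM with siR-2. Every siR-1 library lay above every Scrambled library, and every siR-2 library below. The log2 fold change was 0.81 (SE 0.14, edgeR, Benjamini-Hochberg adjusted p = 0.000144) with siR-1 and −0.66 (SE 0.14, edgeR, Benjamini-Hochberg adjusted p = 0.000732) with siR-2, both under the fold minimum of 1. Under IL-17 it was 2.89, 3.14 and 4.17 CPM, 5.67, 4.96 and 5.08 CPM and 2.01, 2.82 and 1.46 CPM in the same order. There it rose with siR-1, at 0.62 (SE 0.19, edgeR, Benjamini-Hochberg adjusted p = 0.0142) and fell with siR-2, at −0.70 (SE 0.20, edgeR, Benjamini-Hochberg adjusted p = 0.00638). The siR-1 call under IL-17 was lost without siR-1 replicate 1, Scrambled replicate 1 or Scrambled replicate 2, with a highest adjusted p of 0.0745 in edgeR after Benjamini-Hochberg adjustment, and the siR-2 fall went under the fold minimum without siR-2 replicate 3 (−0.50) or Scrambled replicate 3 (−0.53). Under TGF-β the log2 fold changes were 0.50 and −0.31, and neither passed. The direct comparison of siR-2 with siR-1 gave −1.47 in untreated cells, −1.32 under IL-17 and −0.81 under TGF-β, past the fold minimum and adjusted p in each table. The untreated Scrambled level of Eme1 was 340 to 426 estimated counts, with 6 such counts taken as a read pair, and 8.00% of its exon bases overlap Lrrc59 on the opposite strand.

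Of the checkpoint kinases, Chek1, which encodes the kinase that ATR activates at stalled forks, fell with siR-2. It was at 14.3, 11.7 and 13.1 CPM in untreated Scrambled CFs, 8.44, 7.75 and 8.45 CPM with siR-1 and 5.20, 3.34 and 5.13 CPM with siR-2, without overlap, a log2 fold change of −1.52 (SE 0.14, edgeR, Benjamini-Hochberg adjusted p = 1.25e-07). The genes of the apical kinases, Atm (−0.80) and Atr (−0.69), and Chek2 (−0.59), whose product ATM activates, passed the adjusted p with siR-2 but not the fold minimum. Chek2 was also lower with siR-1 by the adjusted p alone (−0.52), and siR-2 differed from siR-1 by −0.06 (SE 0.06), which did not pass. In mismatch repair, Msh6, which encodes a mismatch-binding subunit, went from 43.6, 41.8 and 43.2 CPM to 30.7, 25.5 and 26.7 CPM with siR-1 and 20.2, 17.6 and 18.7 CPM with siR-2, 3 separate ranges. Pms2, a subunit of the MutL endonuclease, fell with siR-2 (−1.10, and −0.99 without siR-2 replicate 2) and was at −0.21 with siR-1, which did not pass the adjusted p. Msh3, which directs repair of larger loops, passed the adjusted p alone with siR-2 (−0.54).

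Among the other repair enzymes Lig1 was lower and Parp1 higher with each siRNA by the adjusted p. Lig1, which encodes the ligase that joins Okazaki fragments, had the highest untreated level per exon length of all 35 genes, 11.9 ± 0.247 CPM per kb (SD, n = 3). It went from 51.6, 49.5 and 50.6 CPM in Scrambled to 31.0, 27 and 30.9 CPM with siR-1 and 22.0, 19.0 and 20.1 CPM with siR-2. The fitted log2 fold change was −1.31 (SE 0.06, edgeR, Benjamini-Hochberg adjusted p = 2.38e-11) with siR-2 and −0.77 (SE 0.06, edgeR, Benjamini-Hochberg adjusted p = 3.49e-08) with siR-1. Parp1, which encodes the poly(ADP-ribose) polymerase that senses strand breaks, was the only member higher by the adjusted p with both siRNAs in all 3 tables. It stood at 43.4, 44.6 and 41.7 CPM in Scrambled, 52.3, 56.1 and 56.9 CPM with siR-1 and 55.4, 54.2 and 53.9 CPM with siR-2, every knockdown library above every Scrambled library. The log2 fold change was 0.35 (SE 0.04, edgeR, Benjamini-Hochberg adjusted p = 6.83e-06) with siR-1 and 0.33 (SE 0.04, edgeR, Benjamini-Hochberg adjusted p = 6.83e-06) with siR-2, both under the fold minimum. Its 6 log2 fold changes ran from 0.25 to 0.38. Taken singly, these 6 comparisons had 11.7% to 25% of all genes higher by the adjusted p. The share of all genes higher in all 6 was not counted. Lig4, the ligase of end joining, was at 0.18 with siR-1 and −0.33 with siR-2, the second past the adjusted p alone. Ung (−0.95), which encodes uracil-DNA glycosylase, and Polq (−0.49), the polymerase of microhomology-mediated joining, were lower with siR-2 by the adjusted p alone.

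With IL-17 alone, differences in these genes were small. Between the Scrambled libraries with and without IL-17, 0 members passed at a log2 fold change of 1 in edgeR or in DESeq2, where 1.39% of all genes did. An unadjusted p under 0.05 was found for 6 members and for 23.6% of all genes. By the adjusted p alone 6.96% of all genes were lower and 6.61% higher, and of the members Chek2 (−0.23), Mus81 (−0.25) and Pms2 (−0.28) were lower and Atr (0.25) was higher. The member median was 0.01, and Scrambled Bard1, for example, stood at 9.52, 9.62 and 9.10 CPM. IL-17 cells are in a table of their own, so table and stimulus cannot be told apart. Within that table siR-2 lowered 22 members and siR-1 lowered 8 and raised 1, Eme1, at the 1.5-fold minimum that the study used there. Of all genes 13.7%, 7.97% and 5.58% did so. By the adjusted p alone 31 members were lower with siR-2 and 21 with siR-1, beside 25.6% and 21.9% of all genes. At a 2-fold minimum, siR-1 lowered 0 and raised 0 members (3.44% and 2.38% of all genes), with 24 members and 47.9% of all genes at an unadjusted p under 0.05. Brca2, Bard1, Blm, Fancd2, Msh6, Chek1 and Lig1 fell with both siRNAs under IL-17, with Msh6 just under the siR-1 limit (−0.58) without siR-1 replicate 1. The share of all genes that fell with both siRNAs was not counted. Fanci stood at 12.5, 11.4 and 12.3 CPM in Scrambled, 9.94, 7.79 and 9.32 CPM with siR-1 and 3.58, 3.42 and 2.68 CPM with siR-2, a log2 fold change of −1.90 with siR-2. Mitosis genes were 17 of 17 lower with siR-2 there (median −1.69) and S phase genes 14 of 17. Summed over Scrambled, siR-1 and siR-2 in turn, cardiomyocyte markers were at 69.2 to 76.4, 31.7 to 35.1 and 22.6 to 25.2 CPM and smooth muscle markers at 143 to 149, 80.5 to 86.5 and 64.6 to 69.8 CPM, and their part was not tested. With siR-1, 1 cardiomyocyte marker fell and 1 rose. Of the 3 smooth muscle markers 1 fell with siR-1, where their median log2 fold change was 0.02, and 2 fell with siR-2. In 1 fit over both tables, the siRNA effect differed with IL-17 for 0 members with siR-1 and 0 with siR-2 in edgeR and in DESeq2. Of all genes 0.189% and 0.165% differed. An unadjusted p under 0.05 was found for 2 and 3 members, beside 11.9% and 9.68% of all genes.

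TGF-β, which turns fibroblasts into contractile myofibroblasts, went with lower levels of most members before any knockdown. Between Scrambled libraries with and without TGF-β, 20 of 35 members were lower by at least 1 on the log2 scale, where 9.07% of all genes were. By the adjusted p alone 30 were lower (28% of all genes) and 1, Fancg, was higher (0.34), beside 29.3% of all genes. The member median was −1.18, beside 0.03 over all genes. Polq fell most, from 16.1, 18.5 and 14.5 CPM to 4.42, 3.77 and 3.87 CPM, a log2 fold change of −2.05 (SE 0.11, edgeR, Benjamini-Hochberg adjusted p = 3.32e-14). Fanca (−1.89), Fanci (−1.84), Chek1 (−1.74) and Bard1 (−1.68) followed. All 8 genes of the BRCA1/BRCA2 group and strand exchange were lower, and both ID2 genes. Rad54l was at −0.99 without TGF-β Scrambled replicate 1 and −0.95 without replicate 3, and Ung at −0.88 without replicate 2. Rad50 (−0.00), Fance (0.06), Mus81 (0.10) and Chek2 (−0.12) did not pass the adjusted p. Rad50, for example, was at 48.8, 47.0 and 48.1 CPM in untreated and 45.4, 49.4 and 51.0 CPM in TGF-β Scrambled cells. The 17 mitosis genes fell as well (median −2.17), to a sum of 415 to 437 CPM, as did 11 of 17 S phase genes. Summed fibroblast markers were 8615 to 8776 CPM in untreated and 14308 to 14924 CPM in TGF-β cells (1 of 7 genes rose and 2 fell). In the latter cells cardiomyocyte markers were at 5.37 to 6.06 CPM and smooth muscle markers at 148 to 166 CPM. At an adjusted p of at most 0.05, 2 of the 3 smooth muscle markers were higher and 1 lower (log2 −0.18 to 2.84). Macrophage markers summed to 19.2 to 21.0 CPM in untreated and 42.1 to 49.3 CPM in TGF-β cells (3 of 6 genes rose and 1 fell) and endothelial markers to 55.8 to 59.9 and 88.7 to 90.0 CPM (1 of 5 rose and 1 fell). Their part and that of cell division were not tested. The TGF-β libraries form a table of their own, so table and stimulus cannot be told apart here either.

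On this lower base, siR-2 lowered 14 members at the 1.5-fold minimum within the TGF-β table (5.44% of all genes) and 18 were lower by the adjusted p alone (14.8%). At a 2-fold minimum the first count was 2 (2.17% of all genes). Smooth muscle markers summed to 148 to 166 CPM in Scrambled, 102 to 105 after siR-1 and 102 to 109 after siR-2, and their part was not tested. The member median was −0.39, and 17 of 17 mitosis genes were lower (median −1.13). With siR-1 no member passed the fold minimum in edgeR or in DESeq2 (1.91% of all genes were lower), 13 had an unadjusted p under 0.05 (32.5% of all genes), and 6 were lower by the adjusted p alone (11.4%). That 0 became 2 without TGF-β siR-1 replicate 2 and 1 without siR-1 replicate 3, Scrambled replicate 1 or Scrambled replicate 3. Fancd2 fell most with siR-2, from 5.47, 4.93 and 4.57 CPM in Scrambled through 3.30, 3.81 and 3.11 CPM with siR-1 to 2.45, 2.06 and 1.30 CPM with siR-2, a log2 fold change of −1.37 (SE 0.18, edgeR, Benjamini-Hochberg adjusted p = 1.97e-05). Polq also fell there (−0.82), beside −0.49 in untreated cells, and the difference was not past the adjusted p (−0.34, SE 0.15). Over the 3 tables, siR-2 lowered 12 members in each by that table's fold minimum: Brca1, Bard1, Rad51ap1, Rad54l, Brip1, Xrcc2, Blm, Exo1, Fanca, Fancd2, Fanci and Lig1. Of these, 3 calls under TGF-β were ended by leaving out 1 library. Without siR-2 replicate 1 Blm was at −0.55 and Xrcc2 at −0.42, without Scrambled replicate 2 Blm was at −0.48 and Xrcc2 at −0.54, and without Scrambled replicate 3 Blm was at −0.57 and Brip1 at −0.52, and Brip1 was at −0.47 without siR-2 replicate 2. Lig1 was lower by the adjusted p with both siRNAs in all 3 tables and under each of 16 alternatives per comparison. A total of 11 members fell with siR-2 in none: Rad50, Nbn, Mus81, Fancc, Fance, Fancf, Fancg, Fancl, Msh3, Lig4 and Parp1. Taken singly, the untreated, IL-17 and TGF-β tables had 7.23%, 13.7% and 5.44% of all genes lowered by siR-2. The shares of all genes lowered in all 3 tables or in none were not counted.

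For 6 members the siR-2 effect differed between TGF-β and untreated cells. In 1 fit over the untreated and TGF-β tables, the log2 fold change with siR-2 differed by at least 1 for Bard1, Brca2, Chek1, Atm, Pms2 and Ung, each less negative or positive under TGF-β. Those 6 of 35 members compare with 2.88% of all genes, and 20 passed the adjusted p alone, beside 14.6%. At a 1.5-fold minimum the count was 14 (6.59% of all genes). Bard1 differed by 1.36 (SE 0.24, edgeR, Benjamini-Hochberg adjusted p = 8.15e-05). It changed by −2.14 in untreated cells and −0.76 under TGF-β, where it was at 3.41, 2.69 and 2.52 CPM in Scrambled and 2.05, 1.37 and 1.68 CPM with siR-2. The TGF-β Scrambled level of Bard1 overlapped its untreated siR-2 level given above. Chek1 differed by 1.20 (SE 0.19, edgeR, Benjamini-Hochberg adjusted p = 2.13e-05) and stood at 4.08, 4.26 and 3.60 CPM in Scrambled and 3.07, 3.62 and 3.02 CPM with siR-2 under TGF-β. Atm differed by 1.19 (SE 0.23, edgeR, Benjamini-Hochberg adjusted p = 0.000958), and its TGF-β Scrambled libraries were at 7.54, 12.6 and 12.1 CPM, with replicate 1 the lowest, against 13.7, 13.8 and 15.3 CPM with siR-2. The differences of Brca2, Pms2 and Ung were 1.02, 1.00 and 1.14. The differences of Bard1 and Chek1 stayed past both limits in each of 24 alternatives, while that of Pms2 went under 1 in 8, of Brca2 in 5, and of Atm and Ung in 1 each. The count of 6 was 3 without TGF-β Scrambled replicate 2. For siR-1 the differences reached the fold minimum for 0 members in edgeR and in DESeq2, where 2.36% of all genes did, and 14 members had an unadjusted p under 0.05 (29.2% of all genes). Mitosis genes showed a siR-2 difference too, 15 of 17 past the adjusted p alone (median 0.45), as did 12 of 17 S phase genes (median 0.50), beside a member median of 0.49.

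**Figure D3:**
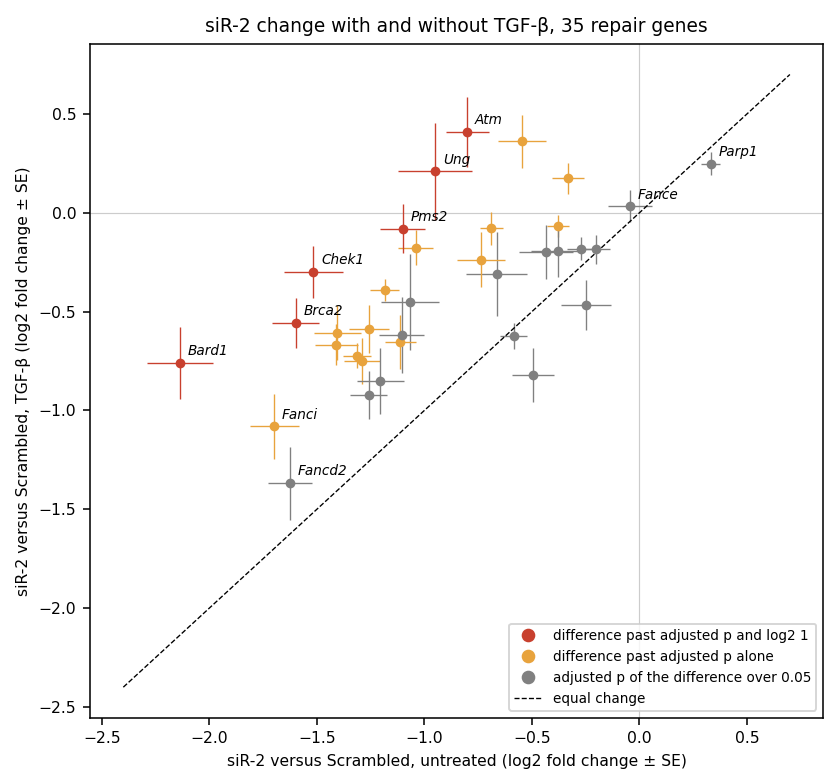
Log2 fold change of the 35 genes with siR-2 against Scrambled in untreated cells (horizontal axis) and under TGF-β (vertical axis), with standard errors from the edgeR fit of each table as bars and equal change as a dashed line. Bard1, Brca2, Chek1, Pms2, Atm and Ung (red) lie farthest above the line, while Fancd2 (−1.62 and −1.37) lies near it.

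siR-2 and siR-1 were also compared with each other. The Scrambled libraries were part of these fits, in the filter, the scaling and the spread, but not of the difference itself. siR-2 was lower than siR-1 for 6 members in untreated cells (4.41% of all genes), for 19 under IL-17 (9.62%) and for 5 under TGF-β (3.12%), at the fold minimum of each table. At the other fold minimum, 1.5-fold for untreated cells and 2-fold for the stimulated ones, these counts were 18, 10 and 0, beside 10.1%, 4.18% and 0.91% of all genes. The 6 in untreated cells were Bard1 (−1.26), Exo1 (−1.13), Eme1 (−1.47), Fancd2 (−1.01), Fanci (−1.20) and Xrcc2 (−1.06). Fancd2 was at −0.94 to −0.99 without siR-2 replicate 2, siR-1 replicate 1 or siR-1 replicate 3, and Xrcc2 at −0.99 without siR-2 replicate 3. Xrcc2 was at 8.45, 9.46 and 7.54 CPM in Scrambled and 8.35, 8.09 and 8.15 CPM with siR-1, which overlapped, and at 4.28, 3.94 and 3.60 CPM with siR-2. The member medians of siR-2 against siR-1 were −0.68, −0.67 and −0.25. The siRNA target itself was lower with siR-2 than with siR-1, at 1.82 ± 0.0600 and 3.00 ± 0.498 CPM in untreated cells (SD, n = 3), and mitosis genes were lower too (median −0.90). What sets the siRNAs apart was not tested.

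Repair genes outside the list were fitted as well. Of 57 others, siR-2 lowered 10 in untreated cells, 19 under IL-17 and 6 under TGF-β, where 7.23%, 13.7% and 5.44% of all genes fell. The medians were −0.31, −0.30 and −0.08. Under IL-17 siR-2 raised 3 of the 57, where 8.06% of all genes rose. siR-1 lowered 1, 5 and 2 of the 57 in the same order, where 2.61%, 7.97% and 1.91% of all genes fell. TGF-β in Scrambled cells went with lower levels of 15 (9.07% of all genes) and a median of −0.28. In each comparison whose median is given the median was nearer to 0 than that of the 35 members, whose list was drawn up with earlier results of these data known, and the difference between the lists was not tested.

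No member was called between KO and HET hearts. Of the 35 genes 27 passed the filter on low counts and 0 were called in edgeR or DESeq2. Of all 16675 genes tested 0% were called. An unadjusted p under 0.05 was found for 601 genes and for 0 members. The members' log2 fold changes ran from −0.22 to 0.23 with a median of −0.02. Parp1 was at 37.3, 34.2, 34.0 and 34.2 CPM in the HET hearts and at 32.7, 31.8, 35.4 and 33.7 CPM in the KO hearts, overlapping ranges. Bard1, Brca1, Rad51ap1, Eme1, Exo1, Chek1, Fancd2 and Fanci did not pass the filter. Fancd2 had 0 counts in all HET hearts, where 3 counts is the floor, and 0 to 6 counts in KO hearts. Brca1 had 0 counts in 3 HET hearts and 4 in the other, and 5 or 6 in each KO heart, and was not tested. Mitosis genes summed to 20.4 to 28.4 CPM in HET hearts and 1770 to 1786 CPM in untreated Scrambled CFs.

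Per exon length, Lig1, Nbn, Msh6, Rad50 and Parp1 led in untreated Scrambled CFs, at 11.9 ± 0.247, 11.5 ± 0.340, 9.86 ± 0.215, 8.92 ± 0.172 and 8.17 ± 0.280 CPM per kb (SD, n = 3). The ranges of Lig1 and Nbn overlapped, and each of the next 3 lay below the one before it. In HET hearts Parp1 (6.60 ± 0.304), Nbn (6.18 ± 0.365), Mus81 (5.81 ± 0.619), Ung (3.11 ± 0.293) and Fance (2.56 ± 0.190 CPM per kb, SD, n = 4) were highest, and Lig1 stood at 0.421 ± 0.0901. Ung was the lowest of the 35 in untreated Scrambled CFs at 0.483 ± 0.0115 CPM per kb. It was at 2.58, 2.64 and 2.70 CPM in those 3 libraries and at 15.6, 18.6, 18.1 and 15.6 CPM in the HET hearts. The tables of hearts and CFs were counted in different ways and scaled separately, so these levels are set side by side without a test.

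**Figure D4:**
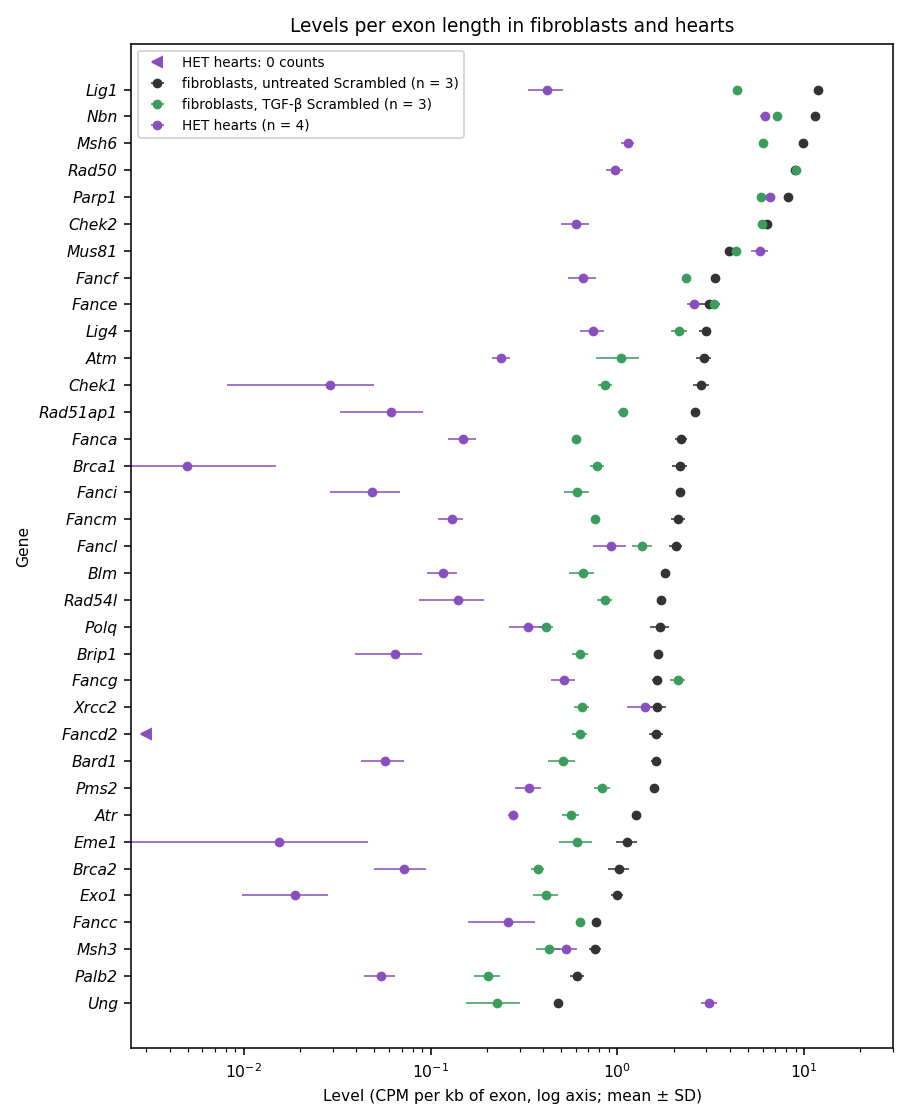
Level per exon length of the 35 genes in CPM per kb (horizontal log axis, mean ± SD) in untreated Scrambled CFs, TGF-β Scrambled CFs (n = 3 each) and HET hearts (n = 4), ordered by the untreated level, with a bar that would cross 0 cut short on its lower side and 0 counts drawn as an arrowhead. Fance lies at 3.11 ± 0.420, 3.29 ± 0.0735 and 2.56 ± 0.190 CPM per kb in the 3 groups, while Brca1 and Fancd2 are at or near 0 in hearts and Ung is higher there.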

How the data were processed

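Libraries were made from oligo(dT)-selected RNA. The authors trimmed reads with Cutadapt 3.7, checked them with FastQC 0.11.9, aligned them with HISAT2 2.2.1 to GRCm38 and quantified them with StringTie 2.1.4, and they used DESeq2 1.24.0. The annotation release and the strand setting are not given in the sources used here. The deposited CF tables hold estimated counts per gene, as whole numbers; the step from StringTie to these numbers is not given in the sources used here, and the deposited heart table holds counts. Neither was normalized. Columns of the TGF-β table were matched to samples by the names in their descriptions. Columns of the untreated and IL-17 tables name the siRNA only by a code, which was read as siR-1 or siR-2 through the TGF-β descriptions and is not stated for those tables, and heart columns carry a genotype without a replicate number.

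Genes passing edgeR's filter on low counts were tested in R 4.3.3 with edgeR 4.0.16 (TMM, quasi-likelihood F test, Benjamini-Hochberg adjustment over all genes of the table), within each table with its 3 groups, in 1 fit over the 18 libraries of the untreated table and one stimulated table for stimulus and interaction contrasts, and KO against HET in hearts. Calls needed an adjusted p of at most 0.05 and a change of at least 2-fold, or of at least 1.5-fold within the IL-17 and TGF-β tables; the methods give these limits for untreated and IL-17 cells, and those for TGF-β and hearts were carried over. Exon lengths came from GENCODE vM21. Alternatives were DESeq2 1.42.0, RLE size factors, other filters on low counts, estimated counts divided by 6, a fit to the 2 compared groups, other fold minimums, a replicate block and leaving out each library, and the fits were tested on simulated data. Counts have no molecular identifiers, so floors (3 read pairs, taken as 18 estimated counts in CFs and 3 counts in hearts) cover counting error only.

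The members and lists were chosen with earlier results of these data known. The rule for named genes took members past the limits with both siRNAs in at least 2 tables, which gave none, members with opposite directions under the siRNAs (Eme1), and the members with the fewest passed comparisons (Fance, Mus81). The other members given per library were chosen after their values were seen.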

Additional observations from a re-analysis of the deposited data

Results flagged for a closer look

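In groups of 4 hearts, 69 combinations of gene and genotype were examined for 1 library standing apart from the other 3, and 5 did so, where chance gives about 1 in 20. Parp1 was at 37.3 CPM in 1 HET heart and between 34.0 and 34.2 CPM in the others. Palb2 was at 0.0431 CPM in 1 KO heart and between 0.493 and 0.521 CPM in the others. Brca1 and Eme1 were each at 0.170 CPM in 1 HET heart, and Eme1 at 0.0844 CPM in 1 KO heart, with 0 counts in the other hearts of these groups. These last 3 values rest on 2 to 4 counts. Where the other hearts are at 0 the rule flags any value above 0, so the chance rate does not cover these 3.

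For 6 members the log2 fold change with siR-2 differed between TGF-β and untreated cells by the interaction term of edgeR. The difference was 1.36 for Bard1, 1.20 for Chek1, 1.19 for Atm, 1.14 for Ung, 1.02 for Brca2 and 1.00 for Pms2. The stimulus and the table it was deposited in cannot be told apart.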

How the results depend on the processing

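Changing the fold minimum moved the counts of members most. With the adjusted p alone, the lower and higher counts in untreated cells were 19 and 2 after siR-1 (20.4% and 19.5% of all genes). After siR-2 they were 32 and 1 (25% and 24.4%), and 28 were lower with siR-2 than with siR-1 (22.8%). Under IL-17 the counts were 21 and 2 with siR-1 (21.9% and 20.3% of all genes), with 1 higher with siR-2 (25%). Under TGF-β they were 6 and 2 with siR-1 (11.4% and 11.7%). There 1 was higher with siR-2 (15.1%) and 14 were lower with siR-2 than with siR-1 (12%). In Scrambled cells 3 were lower and 1 higher with IL-17 (6.96% and 6.61% of all genes), and 1 higher with TGF-β (29.3%). The log2 fold change with the siRNA was less negative or more positive under TGF-β than in untreated cells for 7 with siR-1 (9.19%) and 20 with siR-2 (14.6%). At a 1.5-fold minimum the untreated siR-1 counts were 7 lower and 1 higher (6.65% and 5.42% of all genes). In those cells 18 were lower with siR-2 than siR-1 (10.1%). By that limit the log2 fold change was less negative or more positive under TGF-β for 2 with siR-1 (3.26%) and 14 with siR-2 (6.59%). At a 2-fold minimum, IL-17 siR-1 gave 0 lower and 0 higher (3.44% and 2.38% of all genes). At that limit siR-2 against siR-1 gave 10 under IL-17 (4.18%) and 0 under TGF-β (0.91%), and TGF-β siR-2 gave 2 (2.17%). These follow from the limits themselves.

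Leaving out 1 library at a time gave 16 to 19 members lower with siR-2 in untreated cells, 22 to 24 under IL-17 and 12 to 15 under TGF-β, 7 to 11 lower and 0 to 1 higher with siR-1 under IL-17, and 0 to 2 lower with siR-1 under TGF-β. siR-2 was lower than siR-1 for 5 to 7, 18 to 19 and 4 to 7 members in the 3 tables, TGF-β went with lower levels of 19 to 21, and the siR-2 effect differed under TGF-β for 3 to 6. The cause of these shifts was not tested. Same-numbered CF libraries did not deviate together (correlations of −0.138 to 0.0464, 0 of 9 pairs over 0.1 in each table), so no shared effect of the number was seen. Whether same-numbered libraries came from 1 culture cannot be told from these correlations. With the replicate number as a block, 13 rather than 14 members were lower with siR-2 under TGF-β and 5 rather than 6 differed under TGF-β, and other counts of members did not move. In hearts, no paired analysis was possible because the heart columns carry no replicate numbers. Of 268 results of single members past the adjusted p, 0 reversed direction and 35 missed the limit under at least 1 alternative, with DESeq2 4 of them.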
